A study of Mus musculus with 36 samples.

Results

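Transcripts of 9 genes that sense, convert, move or bind thyroid hormone, or act upstream of it, were followed in the liver: the receptor genes *Thra* and *Thrb*, the deiodinase gene *Dio1*, the transporter genes *Slc16a10*, *Slc7a5* and *Slc7a8*, the carrier genes *Ttr* and *Serpina7*, and *Trhde*, whose enzyme degrades thyrotropin-releasing hormone. They were chosen by name from the 54532 genes of the deposited count table. All 9 were found there once and all 9 had enough counts to be tested, as did 17994 genes in all (a sum of at least 100 counts over 36 libraries). The livers came from male mice of 2 to 3 months on chow, kept in 12 h of light and 12 h of dark, of the line B6.129S1-Thrbtm1Df/J on a C57Bl/6NCrl background. Of these, 18 were controls carrying 1 altered *Thrb* allele (THRB+/-, labelled WT and called THRB WT here) and 18 carried the alteration on both alleles (THRB-/-, THRB KO). In each genotype 3 mice were sampled at 6 times 4 h apart, from ZT2 to ZT22, with ZT (zeitgeber time) counted in hours from lights on. The alteration impairs DNA binding by both isoforms of the receptor and is carried in all tissues, so that effects in the liver and in other organs cannot be told apart. The controls thus carried the altered allele too.

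Thyroid hormone reaches the hepatocyte from the blood, where thyroxine-binding globulin (*Serpina7*), transthyretin (*Ttr*) and albumin carry it. Membrane transporters move it across the plasma membrane, among them the aromatic amino acid transporter encoded by *Slc16a10* and the light chains of the heterodimeric amino acid transporters encoded by *Slc7a5* and *Slc7a8*. Type 1 deiodinase (*Dio1*) removes iodine from thyroxine to give triiodothyronine and also clears inactive forms. In the nucleus the hormone binds the receptors THRA and THRB, which sit on DNA as dimers with the retinoid X receptor. THRB is known as the main receptor form of the liver, and *Dio1* as a gene that thyroid hormone induces there.

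Upstream sequences are shown for *Dio1* and *Trhde*, the members whose level differed between the genotypes. They are the 250 bases before the RefSeq transcription start, read from RefSeq promoters of GRCm38.p6, the assembly family of the deposited counts. The table held such entries for 6 of the members other than *Ttr*, namely *Dio1*, *Slc16a10*, *Trhde*, *Thrb*, *Slc7a8* and *Serpina7*. Matches to AGGTNA (N for any base, both strands searched), a loose form of the half-site that many nuclear receptors bind, are in capitals.
Dio1 (chr4:107307169-107307418, minus strand): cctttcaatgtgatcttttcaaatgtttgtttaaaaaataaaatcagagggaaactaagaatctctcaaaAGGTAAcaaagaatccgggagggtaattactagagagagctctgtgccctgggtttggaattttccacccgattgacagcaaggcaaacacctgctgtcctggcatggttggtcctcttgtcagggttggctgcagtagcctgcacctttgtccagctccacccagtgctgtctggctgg
Trhde (chr10:114802303-114802552, minus strand): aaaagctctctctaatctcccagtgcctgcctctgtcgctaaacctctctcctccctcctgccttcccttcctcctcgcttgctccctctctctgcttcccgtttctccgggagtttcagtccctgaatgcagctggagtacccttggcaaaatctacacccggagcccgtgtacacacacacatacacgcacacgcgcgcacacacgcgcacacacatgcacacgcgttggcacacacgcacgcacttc
The *Dio1* stretch held 1 match, AGGTAA, 180 bases before the start, and the *Trhde* stretch held none. Of 32851 mouse promoters of this length 37.2% held AGGTNA, as did those of *Dio1*, *Slc16a10* and *Thrb*. The stricter AGGTCA was found in 14% of all promoters. Among the members it was in the *Thrb* window chr14:17660710-17660959, 184 bases before its start. The other *Thrb* window, chr14:17981394-17981643, held AGGTTA, 182 bases before its start, and no AGGTCA. A direct repeat of AGGTNA with 4 bases between the copies occurred in 0.0913% of promoters and in no member's window. These matches are descriptions of letters in a short window and not binding sites.

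The RNA was poly-A selected and sequenced without strand information, and THRB WT libraries held 29063273 to 39913574 counts and THRB KO libraries 31008555 to 42530551. Levels are given as CPM, counts scaled by TMM to libraries of 1e+06 counts, and, for comparisons between genes, as CPM per kb of the deposited gene length. Hepatocyte markers dominated every library (the summed level of 6 markers was 58800 to 85100 CPM in THRB WT and 69700 to 93500 in THRB KO), with Kupffer, endothelial, stellate, cholangiocyte and erythroid markers also present. None of the 48 marker genes in 8 lists passed the genotype test. T cell markers were nearly absent, at a summed 1.26 to 5.46 CPM. A bulk sample cannot tell fewer cells of a type from less RNA per cell.

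**Figure D1:**
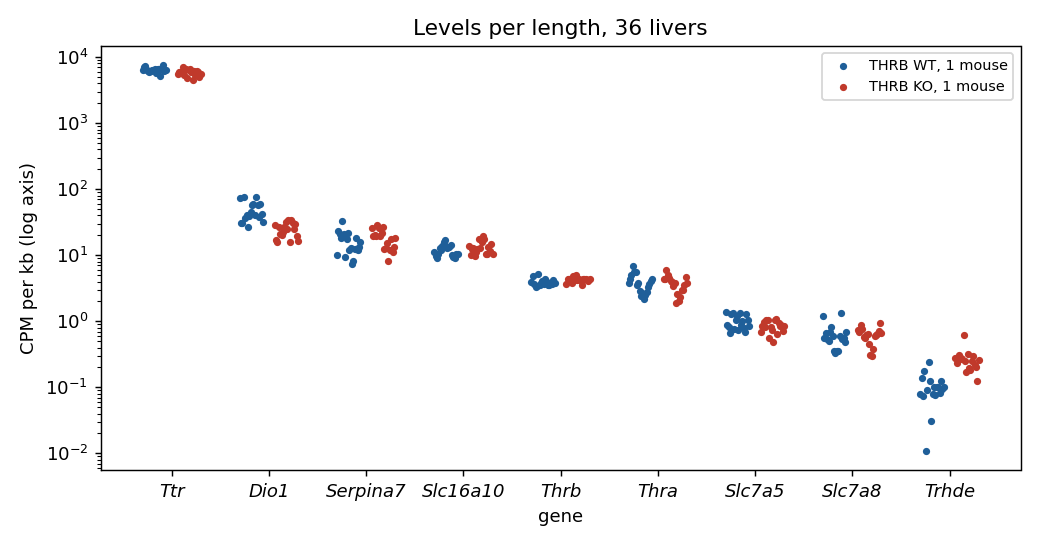
Levels of the 9 genes in the 36 livers in CPM per kb on a log axis, 1 point per mouse and genotypes in separate colours, ordered from left to right by their mean. *Ttr* stood above all others, and the ranges of *Thrb* and *Thra* overlapped.

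The carriers and the deiodinase were the most abundant members per length, and *Trhde* the least. In THRB WT livers the mean level was 6435 CPM per kb for *Ttr*, 47.9 for *Dio1*, 16.0 for *Serpina7*, 12.0 for *Slc16a10*, 3.90 for *Thrb*, 3.87 for *Thra*, 0.999 for *Slc7a5*, 0.622 for *Slc7a8* and 0.101 for *Trhde*. The order was the same in THRB KO livers, from 5823 CPM per kb for *Ttr* through 24.5 for *Dio1* and 18.3 for *Serpina7* down to 0.262 for *Trhde*. *Ttr* exceeded *Dio1*, *Slc16a10* exceeded *Thrb*, and *Thra* exceeded *Slc7a5* in 36 of 36 libraries, with ranges that did not overlap. Other neighbours in this order changed places. *Serpina7* exceeded *Slc16a10* in 24 of 36 libraries, *Thrb* exceeded *Thra* in 24 of 36, *Slc7a5* exceeded *Slc7a8* in 31 of 36, and *Slc7a8* exceeded *Trhde* in 34 of 36. *Dio1* exceeded *Serpina7* in 18 of 18 THRB WT but 13 of 18 THRB KO livers.

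Across the genotypes, *Dio1* was lower and *Trhde* higher in THRB KO livers, and the other 7 members did not pass the test. The test was edgeR's quasi-likelihood test over 17994 genes with sampling time in the model and an adjusted p threshold of 0.05. It called 2 of the 9 members, against 0.950% of all genes tested (171 genes, 91 higher and 80 lower). The members were chosen with earlier results of these data known, so these shares are no test of an excess among them. The median log2 fold change was -0.01 over the members and -0.0011 over all genes tested.

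**Figure D2:**
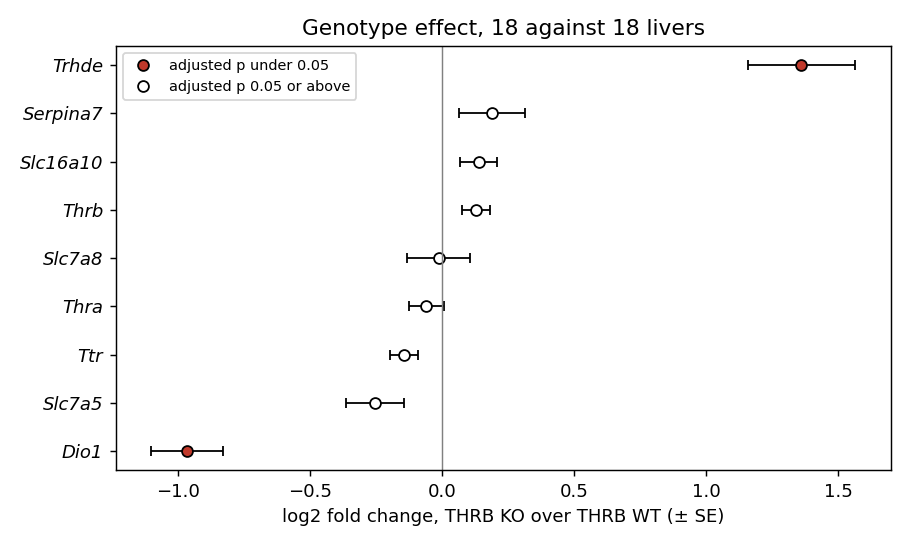
Log2 fold change of each member, THRB KO over THRB WT, with its SE, from 18 livers against 18 and with sampling time in the model. Filled points mark *Dio1* (-0.97) and *Trhde* (1.36), which passed an adjusted p of 0.05, and open points the other 7 members, which lay between -0.25 and 0.19.

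*Thrb*, the targeted gene, was counted in every library, and counts per gene do not separate altered from intact transcripts. At ZT2 the THRB WT livers held 27.2, 29.4 and 36.5 CPM and the THRB KO livers 27.6, 31.9 and 32.6. At ZT10 the values were 25.9, 27.8 and 29.6 CPM in THRB WT and 31.1, 31.5 and 37.7 in THRB KO, and at ZT18 they were 26.2, 26.5 and 28.4 against 31.9, 32.0 and 32.5. ZT10 and ZT18 were the only sampling times at which the genotypes did not overlap for *Thrb*. At ZT6 (24.3 to 38.5 and 27.7 to 35.9 CPM), ZT14 (27.2 to 31.8 and 26.2 to 32.3) and ZT22 (27.0 to 30.7 and 30.5 to 32.4) they did. The log2 fold change was 0.13 (SE 0.053, adjusted p = 0.309 by edgeR's quasi-likelihood test). The level of *Thrb* was therefore no check of the genotype labels.

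*Dio1*, the deiodinase gene, had a mean of 94.4 ± 32.0 CPM in THRB WT and 48.3 ± 12.3 CPM in THRB KO livers (SD, n = 18 each), so that the THRB KO mean was 51.2% of the THRB WT mean. At ZT2 the THRB WT livers held 59.8, 60.8 and 146 CPM and the THRB KO livers 31.6, 33.7 and 57.1. At ZT6 the values were 71.0, 81.0 and 150 CPM against 39.6, 41.5 and 51.8. Every THRB KO liver lay below every THRB WT liver of its time at both of these. At ZT10 the ranges met, with 52.1, 78.6 and 89.5 CPM in THRB WT and 44.8, 52.0 and 62.2 in THRB KO. At ZT14 the values were 80.8, 113 and 117 CPM against 31.6, 49.2 and 67.3, and at ZT18 they were 75.8, 112 and 151 against 48.8, 61.5 and 67.9. At ZT22 they were 62.1, 83.3 and 116 CPM against 32.0, 38.9 and 58.3. The genotypes thus did not overlap at 5 of 6 sampling times, and the mean was lower in THRB KO at 6 of 6. Over all times 12 of 18 THRB KO livers lay below the lowest THRB WT liver. No overlap in 1 direction at 4 or more of 6 times was seen in 0.345% of all genes tested.

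The log2 fold change of *Dio1* was -0.97 (SE 0.137, adjusted p = 4.19e-05 by edgeR's quasi-likelihood test). Over 10 alternative settings, its adjusted p lay between 1.56e-08 and 0.00872. THRB WT livers spread more widely than THRB KO livers, with a coefficient of variation of 33.9% against 25.5%. Part of that spread went with the letter (a, b or c) that the labels give each mouse within its group, since THRB WT mice lettered a had a mean of 121 CPM, those lettered b 87.1 and those lettered c 74.8. Within each letter, with 6 mice a genotype, THRB KO was lower on the log2 CPM scale, by a difference of -1.07 for a, -0.83 for b and -0.90 for c. The number in each mouse's label rose from a to c in 12 of 12 groups. Whether the letters stand for a batch is not given in the sources used here, and their part in the level of *Dio1* was not tested.

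**Figure D3:**
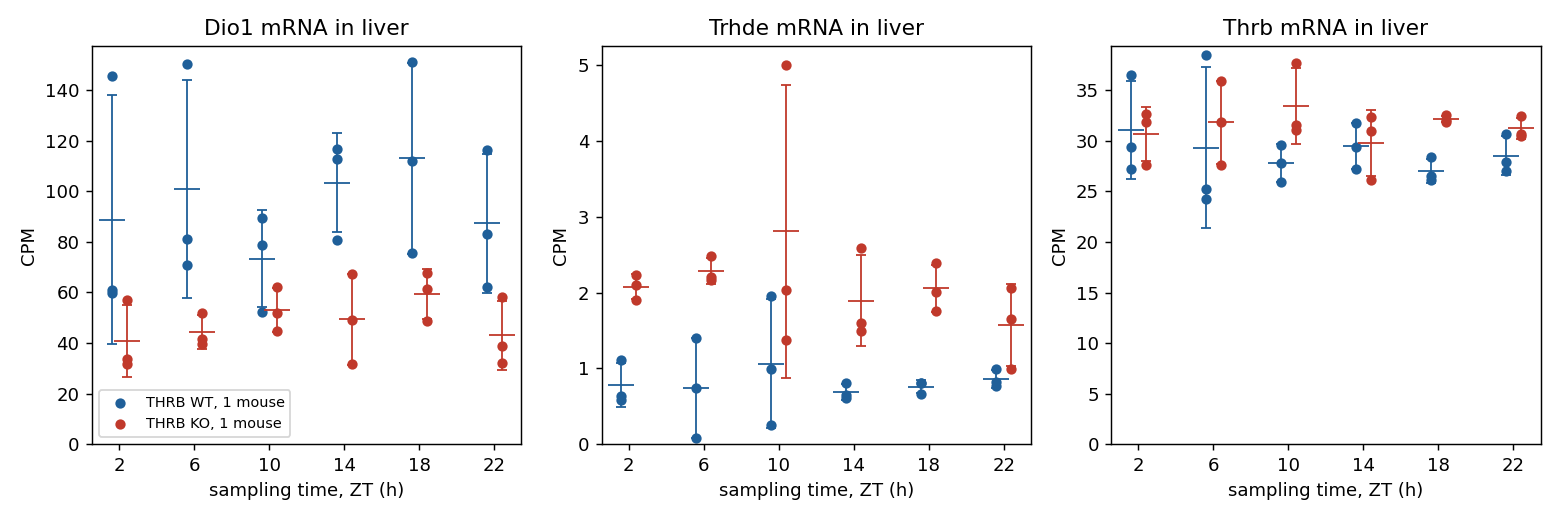
*Dio1*, *Trhde* and *Thrb* in CPM (axes from 0) against sampling time in ZT, 1 point per mouse, with horizontal lines for the mean and bars for the SD of 3 mice. *Dio1* points of THRB KO lay below those of THRB WT at every time but ZT10, *Trhde* points lay above them at ZT2, ZT6, ZT14 and ZT18, and *Thrb* points overlapped at 4 of 6 times.

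*Trhde*, the gene of the ectoenzyme that cleaves thyrotropin-releasing hormone and that is best known from pituitary and brain, was scarce in the liver and higher in THRB KO. Its mean was 0.816 ± 0.408 CPM in THRB WT, from 3 to 76 counts a library, and 2.12 ± 0.830 CPM in THRB KO, from 37 to 155 counts (SD, n = 18 each), a ratio of means of 2.59. At ZT2 the THRB WT livers held 0.587, 0.639 and 1.11 CPM and the THRB KO livers 1.91, 2.11 and 2.23. At ZT6 the values were 0.0877, 0.737 and 1.40 CPM against 2.17, 2.20 and 2.48. At both times the genotypes were apart. At ZT10 both spread widely and met, with 0.249, 0.994 and 1.95 CPM in THRB WT and 1.37, 2.04 and 5.01 in THRB KO. At ZT14 the values were 0.615, 0.646 and 0.806 CPM against 1.5, 1.60 and 2.59, and at ZT18 they were 0.659, 0.807 and 0.813 against 1.76, 2.02 and 2.39. At ZT22, with 0.767, 0.818 and 0.996 CPM against 0.995, 1.66 and 2.07, a single THRB KO liver reached the THRB WT range. The genotypes did not overlap at 4 of 6 times. No overlap in 1 direction at 4 or more times was seen in 0.345% of all genes tested.

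The log2 fold change of *Trhde* was 1.36 (SE 0.204, adjusted p = 9.83e-05 by edgeR's quasi-likelihood test). Within the letters the difference on the log2 CPM scale was 1.29 for a, 1.41 for b and 1.55 for c. Of the 8065 exonic bases of *Trhde*, 538 are shared with *Gm15723*, an annotated antisense gene, and reads from the pair cannot be told apart without strand. *Gm15723* itself had 5 counts over the 36 libraries.

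*Ttr*, *Thrb* and *Slc7a5* had an unadjusted p under 0.05 (edgeR) but did not pass the adjustment. Of the 17994 genes tested, 2169 had an unadjusted p under 0.05, as had 5 of the 9 members, *Dio1* and *Trhde* among them. *Ttr*, the transthyretin gene and by far the most abundant member, had a mean of 7844 ± 648 CPM in THRB WT and 7098 ± 823 in THRB KO (SD, n = 18 each). Its log2 fold change was -0.14 (SE 0.052, adjusted p = 0.221 by edgeR's quasi-likelihood test). The THRB KO mean of *Ttr* was the lower at 6 of 6 sampling times, and the genotypes were apart at ZT2 (7705 to 8922 against 6723 to 7330 CPM) and ZT22 (7458 to 9185 against 6081 to 7140). Over all genes tested, neither a mean lower at 6 of 6 times nor ranges apart at so few times was counted. This limit holds for *Thra*, *Thrb*, *Slc7a5* and *Slc16a10* as well. *Slc7a5*, the light chain gene of a heterodimeric amino acid transporter of dividing cells, had a mean of 3.70 ± 0.913 CPM in THRB WT and 3.10 ± 0.644 in THRB KO, from 53 to 188 counts a library. Its log2 fold change was -0.25 (SE 0.111, adjusted p = 0.339 by the same test in edgeR). The THRB KO mean was lower at 6 of 6 times, but the genotypes overlapped at every one. Its difference on the log2 CPM scale was -0.49 in mice lettered a, -0.22 in b and -0.02 in c.

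The other transporters and the second carrier differed less than their spread. *Slc16a10* had a mean of 88.1 ± 17.5 CPM in THRB WT and 97.1 ± 21.5 in THRB KO, a log2 fold change of 0.14 (SE 0.069, adjusted p = 0.421 in edgeR). Its genotypes were apart only at ZT14, with 94.7, 96.9 and 97.3 CPM in THRB WT against 119, 132 and 144 in THRB KO. *Serpina7*, the gene of thyroxine-binding globulin, had 39.1 ± 15.8 against 44.7 ± 14.6 CPM, a log2 fold change of 0.19 (SE 0.124, adjusted p = 0.579 in edgeR). *Slc7a8* had 3.11 ± 1.36 against 3.08 ± 0.868 CPM, a log2 fold change of -0.01 (SE 0.120, adjusted p = 0.982 in edgeR). *Thra*, the gene of the other receptor, had 17.8 ± 5.96 against 17.0 ± 5.02 CPM, a log2 fold change of -0.06 (SE 0.065, adjusted p = 0.788 in edgeR).

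Counts of the receptor genes were compared as the ratio of *Thra* to *Thrb* counts in the same library, on a log2 scale with a pseudocount of 0.5. It averaged -0.757 in THRB WT and -0.949 in THRB KO, a difference of -0.19 (p = 0.0384, permutation test that exchanged genotypes among mice of the same sampling time, two-sided, 100000 resamples). The difference was -0.14 (p = 0.211, same permutation test) without the mice lettered a and -0.21 (p = 0.095) without those lettered b. Per length, the ratio was highest at ZT6 in THRB WT (1.61 ± 0.522, SD, n = 3) and at ZT2 in THRB KO (1.18 ± 0.205), and lowest at ZT14 in both (0.608 ± 0.0513 and 0.541 ± 0.0918). The mean ratio per length was above 1 at ZT2 and ZT6 in both genotypes and below 1 at ZT10, ZT14 and ZT18. The counts do not separate the splice form of *Thra* that encodes the hormone-binding receptor from the one that does not. Nor do they separate altered from intact *Thrb* transcripts, and the genotypes differ in how many *Thrb* alleles are altered. The ratio is therefore no measure of the balance of working receptors. The part of reads from exonic bases that *Thra* shares with the clock gene *Nr1d1* was not tested.

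Levels of 4 members differed between sampling times: *Thra*, *Slc7a8*, *Slc16a10* and *Serpina7* passed the test for any difference between sampling times, with genotype in the model, and *Dio1*, *Thrb*, *Slc7a5*, *Ttr* and *Trhde* did not. This test called 45.0% of all genes, so 4 of 9 is near that background. A 24-h cosine fitted within a genotype was called in THRB WT for *Thra*, *Slc16a10* and *Serpina7* (33.1% of all genes) and in THRB KO for *Thra*, *Serpina7* and *Slc7a8* (28.9%), in each case 3 of 9 and again near the background. Without the mice lettered a, *Dio1* was called as well, with an adjusted p of 0.0124 for sampling time and 0.033 for the rhythm in THRB WT (edgeR), against 0.514 and 0.771 with all mice.

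*Thra* had the clearest rhythm of the members. In THRB WT it was highest at ZT6, with 25.7, 25.9 and 32.1 CPM, and lowest at ZT14, with 10.1, 11 and 12.4. In THRB KO the highest mean was at ZT2, with 20.0, 20.2 and 27.7 CPM, and the lowest at ZT14, with 8.83, 9.20 and 11.9. The highest and lowest times did not overlap in either genotype, and at ZT6 the THRB KO livers (19.0 to 23.3 CPM) lay below the THRB WT livers. On the log2 CPM scale the cosine had an amplitude of 0.56 ± 0.081 and a peak at ZT3.68 ± 0.55 h in THRB WT, and an amplitude of 0.56 ± 0.073 and a peak at ZT3.22 ± 0.50 h in THRB KO (± SE). The rhythm had an adjusted p of 3.50e-05 in THRB WT and of 4.03e-05 in THRB KO (edgeR), and that of sampling time was 5.13e-10. *Thra* shares 263 of its 4614 exonic bases with the clock gene *Nr1d1* on the opposite strand, and the libraries were not stranded. *Nr1d1* ranged from 2.71 ± 1.23 CPM at ZT22 to 180 ± 7.65 at ZT6 in THRB WT and peaked at ZT7.40 ± 0.29 h, and the part of shared reads in the *Thra* rhythm was not tested.

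*Serpina7* was highest at ZT6 in both genotypes, with 45.2, 51.1 and 80.5 CPM in THRB WT and 48.0, 63.4 and 70.1 in THRB KO. It was lowest at ZT14 in THRB WT, with 18.1, 29.2 and 31.4 CPM, and at ZT18 in THRB KO, with 19.8, 29.5 and 43.2. The cosine amplitude on the log2 CPM scale came to 0.48 ± 0.16 in THRB WT and to 0.57 ± 0.10 in THRB KO, with peaks at ZT4.72 ± 1.30 h and ZT5.96 ± 0.67 h. The rhythm had an adjusted p of 0.0284 in THRB WT and of 0.000608 in THRB KO, and the adjusted p of sampling time was 0.000436 (edgeR). Without the mice lettered b the adjusted p was 0.333 for the rhythm in THRB WT and 0.106 for sampling time, and without those lettered c the former was 0.0612. *Slc16a10* peaked later, at ZT11.2 ± 0.76 h with an amplitude of 0.30 ± 0.060 in THRB WT (adjusted p = 0.00125 in edgeR). In THRB KO the fitted peak was at ZT12.9 ± 1.42 h with an amplitude of 0.24 ± 0.088, and the adjusted p was 0.0634 in edgeR and 0.0366 in DESeq2. The highest *Slc16a10* group was ZT10 in THRB WT (101, 117 and 127 CPM) and ZT14 in THRB KO (119, 132 and 144 CPM).

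**Figure D4:**
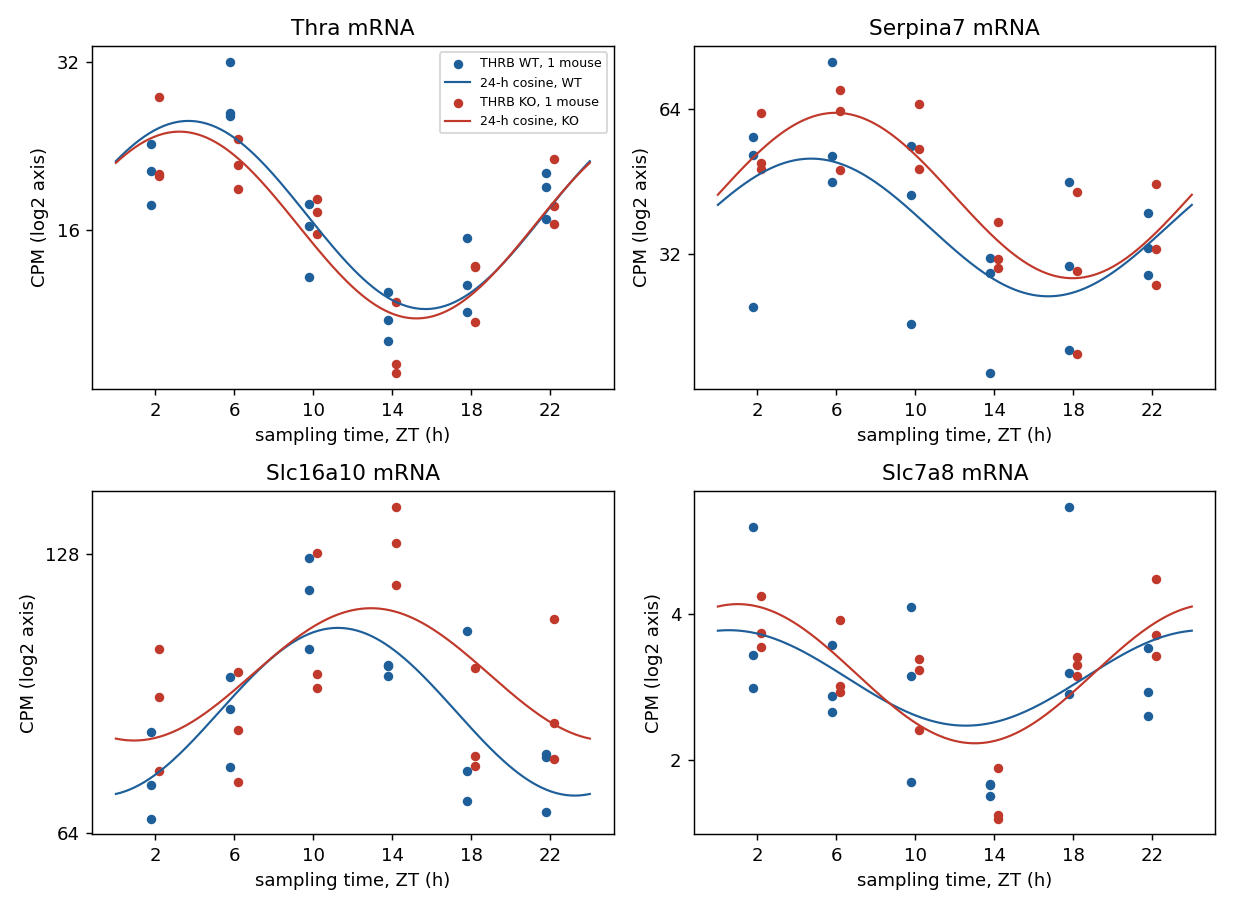
*Thra*, *Serpina7*, *Slc16a10* and *Slc7a8* in CPM on a log2 axis against sampling time in ZT, 1 point per mouse, with the 24-h cosine fitted to log2 CPM in each genotype. *Thra* and *Serpina7* were high in the light phase, *Slc16a10* was high around ZT10 to ZT14, and *Slc7a8* was lowest at ZT14 in both genotypes.

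*Slc7a8* was lowest at ZT14 in both genotypes, with 1.69, 1.77 and 1.79 CPM in THRB WT and 1.51, 1.54 and 1.93 in THRB KO. It was highest at ZT18 in THRB WT, with 2.73, 3.02 and 6.67 CPM, and at ZT22 in THRB KO, with 3.27, 3.62 and 4.73. In both genotypes the livers of ZT14 lay below those of all other times, although 1 THRB WT mouse at ZT10 came close with 1.80 CPM. The adjusted p of sampling time was 0.000338 in edgeR, that of the rhythm in THRB KO was 0.00597, and that in THRB WT was 0.351. Without the mice lettered c the rhythm in THRB KO had an adjusted p of 0.0979. The fitted peak in THRB KO was at ZT1.01 ± 0.80 h with an amplitude of 0.48 ± 0.10.

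Levels of *Slc7a8* moved with markers of Kupffer cells, the resident macrophages of the liver. The summed level of 6 such markers was 132 to 449 CPM in THRB WT and 133 to 263 CPM in THRB KO. The THRB WT mouse with the highest sum (449 CPM, ZT18 letter b) had the highest *Slc7a8* level (6.67 CPM), and that with the next sum (323 CPM, ZT2 letter a) had the next level (6.07 CPM). Over residuals from the 12 group means, *Slc7a8* and the log2 sum correlated with r = 0.863 and rho = 0.834 (n = 36, permutation within groups, adjusted p = 0.0009 over the 9 members for either, 20000 resamples). Without the 2 libraries farthest from the median sum r was 0.795, and within the letters it was 0.881, 0.897 and 0.882. Of the 8 marker lists only the Kupffer list was set against the members, and the adjusted p does not cover that choice. How many of all genes tested followed this sum as closely was not counted. No other member passed the permutation test against the sum, and the next in size was *Serpina7* with r = -0.373 (rho = -0.372, n = 36, adjusted p = 0.271 by the same permutation). Without those 2 THRB WT libraries, an alternative chosen after seeing the data, the adjusted p of sampling time for *Slc7a8* was 4.99e-05 in edgeR, and the log2 fold change between genotypes was 0.14 (adjusted p = 0.537). The marker sums at ZT14 were 157 to 218 CPM in THRB WT and 133 to 156 in THRB KO. In THRB WT their mean was 179 CPM at ZT14, against 169 (ZT6) to 271 (ZT18) at the other times. In THRB KO it was 142 CPM at ZT14, against 156 (ZT18) to 220 (ZT10). The part of these sums in the low *Slc7a8* level at ZT14 was not tested.

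**Figure D5:**
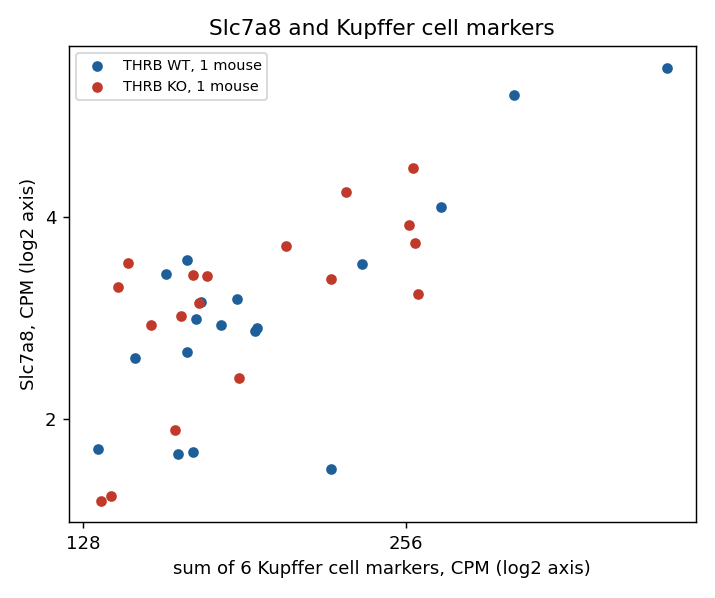
*Slc7a8* in CPM against the summed CPM of 6 Kupffer cell markers, both on log2 axes, 1 point per mouse for 36 livers. The highest points on both axes are the THRB WT mice with sums of 449 and 323 CPM.

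The genotype effect did not pass a test of difference between sampling times for any member. The interaction of genotype and time called 0% of the 17994 genes (edgeR, 484 at an unadjusted p under 0.05, and 0 by DESeq2), and the lowest unadjusted p among the members was 0.0981 for *Slc16a10*. The difference of the 24-h cosine between the genotypes also called 0% (553 at an unadjusted p under 0.05, and 0 by DESeq2). For *Thra* the amplitude differed by -0.0041 ± 0.109 and the peak by -0.46 ± 0.74 h, THRB KO minus THRB WT. For *Serpina7* the differences were 0.0959 ± 0.191 and 1.24 ± 1.46 h, and for *Slc16a10* they were -0.06 ± 0.11 and 1.68 ± 1.61 h (± SE).

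Other genes that handle thyroid hormone were taken from a list of 24, of which 19 were tested. *Dio2*, *Trh*, *Trhr* and *Tshr* had 0 or 1 count over the 36 libraries, and *Slco1c1*, a thyroxine transporter gene of brain vessels, had 70. None of the 19 passed the genotype test, and their median log2 fold change was 0.01. The lowest adjusted p belonged to *Slco1a4*, an organic anion transporter gene, with a log2 fold change of 0.43 (SE 0.127, adjusted p = 0.0957 in edgeR and 0.0322 in DESeq2), followed by the sulfotransferase gene *Sult1d1* with 0.34 (SE 0.103, adjusted p = 0.116 in edgeR). For *Slco1a4* the genotypes were apart at ZT14 (72.6 to 89.8 CPM in THRB WT against 95.6 to 178 in THRB KO) and at ZT18 (40.8 to 42.8 against 49.9 to 93.3) and overlapped at the other 4 times. For *Sult1d1* they were apart at ZT2 and ZT22 and overlapped at the other 4. The share of all genes tested that were apart at so few times was not counted. Sampling time was called for 12 of the 19 (edgeR), against 45.0% of all genes tested, the rhythm in THRB WT for 11, against 33.1%, and that in THRB KO for 9, against 28.9%.

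Among these, *Slco1b2*, a hepatic organic anion transporter gene, was highest at ZT6, at 1008 ± 198 CPM in THRB WT and 983 ± 99.7 in THRB KO, and lowest at ZT18 in THRB WT (543 ± 61.2) and ZT22 in THRB KO (553 ± 60.1). *Slc10a1*, the bile acid importer gene, was highest at ZT10, at 776 ± 142 and 780 ± 112 CPM. *Slco1a4* ranged in THRB WT from 32.4 ± 6.14 CPM at ZT22 to 112 ± 45.6 at ZT10. Others called for sampling time included *Slco2b1*, *Slc17a4*, *Crym*, *Secisbp2*, *Sult1a1*, *Sult1b1*, *Sult1d1* and *Pgpep1*. The call was lost without the mice lettered a for *Slco2b1*, *Crym*, *Sult1a1* and *Pgpep1* (adjusted p = 0.189, 0.0586, 0.0514 and 0.124 in edgeR), without those lettered b for *Slco2b1* and *Pgpep1* (0.298 and 0.129), and without those lettered c for *Sult1a1* (0.127). Without a filter on low counts that of *Slco2b1* was 0.0611. *Dio3*, the inactivating deiodinase gene, was found at 0 to 11 counts a library and passed no test.

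The genes whose pattern was most like that of each member were sought among 12640 genes with a mean of at least 1 CPM, by Pearson's r of log2 CPM over the 36 libraries. These values describe likeness in shared libraries and carry no test. For *Dio1* they were *Rpl15* (r = 0.767), *Mup-ps4* (0.755) and *Wdr18* (0.728). *Rpl15* lies 229733 bases beyond the end of *Thrb* on chromosome 14, and its own log2 fold change was -0.21 (SE 0.027, adjusted p = 1.04e-05 in edgeR). *Mup-ps4* (log2 fold change -2.51) and *Wdr18* (-0.19) were called for genotype as well, so these r include the difference between genotypes. For *Trhde* they were *Sult5a1* (0.717), *Gm4956* (0.709) and *Gm10020* (0.704), of which *Sult5a1* (log2 fold change 0.72) and *Gm10020* (1.06) were called for genotype. For *Thra* they were *Lonp2* (0.920) and *Plpp6* (0.906), and for *Thrb* *Ahr* (0.666), *Top2b* (0.655) and *Zeb1* (0.624). The members differed in how close their nearest gene came, with *Thra* the closest and *Slc7a5* the least close. For *Slc16a10* they were *Slc25a13* (0.803), *Man2a1* (0.797) and *Mxi1* (0.777), and for *Slc7a5* *Rfwd3* (0.589), *Klhl28* (0.583) and *Slc25a33* (0.580). For *Slc7a8* they were *Rgs2* (0.840), *Fabp7* (0.821) and *Lyz2* (0.796). For *Ttr* they were *Apoa2* (0.799), *Cox6a1* (0.794) and *Uqcrq* (0.774), and for *Serpina7* *Med15* (0.801), *Tbk1* (0.784) and *Gm45091* (0.771).

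Once the 12 group means were taken out, so that only differences between mice of a group remained, other genes came first. They were *Acp5* (r = 0.792), *Serpina11* (0.739) and *Creb3l3* (0.733) for *Dio1*, and *Gm4956* (0.854), *Qprt* (0.811) and *Ttc39c* (0.791) for *Trhde*. For *Slc7a8* they were *Vsig4* (0.888), *Csf1r* (0.880) and *Cybb* (0.880), of which *Vsig4* is 1 of the Kupffer markers used above and *Csf1r* encodes a receptor of macrophages. For *Thra* they were *Rab12* (0.749) and *Eml2* (0.736), and for *Thrb* *Bcor* (0.789), *Gse1* (0.785) and *Atad1* (0.781). Only *Gm4956* for *Trhde*, *Klhl28* for *Slc7a5* and *Med15* for *Serpina7* were among the 3 closest genes by both measures. For *Slc16a10* they were *Kdm2a* (0.720), *Zbtb24* (0.677) and *Abcb4* (0.672), and for *Slc7a5* *Klhl28* (0.720), *Unc5b* (0.714) and *Reln* (0.70). For *Ttr* they were *Pemt* (0.846), *Ndufa6* (0.838) and *Bola1* (0.829), and for *Serpina7* *Med15* (0.750), *Zbtb49* (0.732) and *Psmd11* (0.729).

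Levels of the members were also compared between mice of the same group. Of the 36 pairs of members, 0 passed a permutation test of Pearson's r within groups after adjustment (4 of 36 had an unadjusted p under 0.05). The strongest was *Slc7a8* with *Ttr*, at r = -0.483 and rho = -0.469 (n = 36, permutation, adjusted p = 0.182 and 0.326), and r was -0.375 without the 2 libraries farthest from the median. *Thra* and *Thrb* had r = -0.100 and rho = -0.0391 (n = 36, permutation, adjusted p = 0.864 and 0.914).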

How the data were processed

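Liver RNA of 36 mice was sequenced as paired ends from poly-A selected, non-directional libraries. The authors discarded low-quality reads and those with adapter or undetermined sequence, aligned the rest to GRCm38 (mm10) by HISAT2 and assigned them to genes by featureCounts. The deposited values are whole-number counts without normalization. Versions, annotation release, strand setting and the handling of reads with several matches are not given in the sources used here.

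Groups came from the sample titles. Genes whose counts summed to 100 or more were tested with edgeR 4.0.16 (TMM, glmQLFit and glmQLFTest, R 4.3.3), with sampling time in the model for the genotype effect, genotype for the time effect, and sine and cosine of a 24-h period for rhythms. The threshold was 0.05 after Benjamini-Hochberg adjustment. Log2 CPM used a prior count of 2. Amplitudes and peaks came from least-squares cosines on log2 CPM. Permutation tests used Python 3.11.15 and numpy 2.4.6 with 100000 resamples, or 20000 where stated. The fits were tested on simulated data. Each library is a separate mouse. Precision is limited most for *Trhde*, *Slc7a8* and *Slc7a5*, with as few as 3, 45 and 53 counts in a library.

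Named were the 9 members, the genes past the threshold in a list of 24 thyroid hormone handling genes (with the 2 of lowest adjusted p for genotype, named after their values were seen), the 3 genes most like each member, overlapping genes, and 6 markers for each of 8 cell types. Of these, 3 genes that are no members are not reported here. The members and lists were chosen with earlier results of these data known. Alternatives were DESeq2 1.42.0, its size factors, no filter or edgeR's filterByExpr, a model without sampling time, leaving out the mice of each letter, a replicate block, other pseudocounts or prior counts, and, added after seeing the data, leaving out 2 libraries rich in Kupffer markers.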

Additional observations from a re-analysis of the deposited data

How the results depend on the processing

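*Dio1* stayed lower and *Trhde* higher in THRB KO livers, past the threshold, under every alternative run for the genotype effect, and the other 7 members stayed short of it. The number of genes called for genotype, 171 in the fit reported, was 315 with DESeq2, 65 with sampling times pooled, and 40 to 81 when the mice of 1 letter were left out (129 without the 2 libraries rich in Kupffer markers). For the 24-h rhythm, leaving out a letter gave 3113 to 4006 genes in THRB WT (5641 without those 2 libraries, 5952 in the fit reported) and 2343 to 3188 in THRB KO, from fewer mice. The difference between genotypes in the log2 ratio of *Thra* to *Thrb*, THRB KO minus THRB WT, ranged from -0.23 to -0.136 when the mice of 1 letter were left out (p = 0.0261 to 0.211, permutation test). The log2 fold change of *Slc7a8*, -0.01 and not called, was 0.05 without the mice lettered a, 0.00058 without those lettered b, -0.055 without those lettered c and 0.14 without the 2 libraries rich in Kupffer markers. The cause was not tested.

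The letters a, b and c were not taken as pairs, since same-lettered mice of both genotypes at a sampling time deviated together (r above 0.1 across genes) in 9 of 18 pairs (r = -0.038 to 0.2245), although 15 of 18 correlated best with their own letter. The number in each mouse's label differed by 10 or less within 15 of the 18 pairs (median 2) and rose from a to c in 12 of 12 groups, but the labels give these numbers no meaning. For *Dio1* the order of the 3 letters was the same in both genotypes at 5 of 6 sampling times, as it was at 5 or more for 0.422% of all genes tested. With the letter as a replicate block, 387 genes were called for genotype, 8515 for sampling time, 6174 for the rhythm in THRB WT, 5142 for that in THRB KO, 0 for the interaction and 1 for the difference of the rhythm. The block changed no member's call, and the log2 fold change of *Slc7a8* was 0.027 with it. That difference in the ratio of *Thra* to *Thrb* had p = 0.0233 (permutation test) with the block, and 0 pairs of members passed the test of their correlation under any alternative. Few counts limit *Trhde* most, with as few as 3 in a library.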

Other observations

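The cell type markers gave no genotype call in any of the 8 lists. The median summed level in THRB WT and THRB KO livers was 76600 and 78500 CPM for hepatocyte markers, 169 and 165 for Kupffer cell markers, 153 and 157 for endothelial markers, and 209 and 207 for stellate cell markers. It was 43.7 and 38.6 CPM for cholangiocyte markers, 9.87 and 8.61 for B cell markers, 3.36 and 2.98 for T cell markers, and 330.0 and 283 for erythroid markers. The lowest adjusted p for genotype within a list was 0.0957 for the cholangiocyte markers, 0.146 for the B cell markers and 0.15 for the erythroid markers (edgeR). The median log2 fold change over all genes of these lists was -0.20, 0.07 and -0.37. Each lowest p belongs to a single gene, whose direction can differ from that of the median.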
